A study of Arabidopsis thaliana with 56 samples.

Results

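Histone genes are described here across endosperm nuclei of Arabidopsis thaliana that differ in genotype and day. The members were the 47 genes given by name for histones H1, H2A, H2B, H3 and H4, of 32678 genes counted. They were grouped by the role of the protein. The replication-coupled set held 27 genes: 5 for H3.1, 8 for H4, 4 for H2A and 10 for H2B. The variant set held 17 genes: 3 for H3.3, 3 for other H3 proteins, 1 for CENH3, 2 for H2A.X, 3 for H2A.W, 4 for H2A.Z and 1 for H2B.8. The linker set held 3 H1 genes.

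DNA wraps around octamers of H2A, H2B, H3 and H4, and H1 binds the DNA where it enters and leaves the octamer. Cells make the bulk of their core histones in S phase, when new DNA has to be packaged, and the chaperone CAF-1 places H3.1 behind the replication fork. Variants such as H3.3, H2A.Z, H2A.X and H2A.W are also made and exchanged outside S phase, and they mark active genes, inducible genes, sites of DNA damage and heterochromatin. The endosperm divides first as a syncytium and then cellularizes, and its nuclei stop dividing as the seed matures.

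The 20 mRNA libraries came from nuclear RNA of sorted 6C nuclei of seeds. The groups were crwn1/2 at 6 DAP (3 libraries), 7 DAP (5) and 8 DAP (4), and WT at 7 DAP (4) and 6 DAP (4), where DAP is read as days after pollination; no WT library at 8 DAP was analysed. The label crwn1/2 stands for loss of CRWN1 and CRWN2, proteins of the plant nuclear lamina, per the design text; the labels name no alleles. Seeds of up to 5 siliques were pooled for a library, per the labels, and no label says whether libraries of a group came from separate plants, so p-values measure the spread between libraries only.

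Library totals ran from 6986418 to 14359413 counts, and histone genes took 0.460% to 0.876% of them. CRWN1 was counted in every library and did not pass the test at either shared day, with a log2 difference between crwn1/2 and WT of -0.51 (adjusted p = 0.192) at 6 DAP and -0.02 (adjusted p = 0.962) at 7 DAP. CRWN2 was lower in crwn1/2 at 6 DAP by -1.26 (adjusted p = 0.00392) and had a difference of -0.61 (adjusted p = 0.0618) at 7 DAP, so its counts do not by themselves separate the genotypes at both days, and the genotypes are called as labelled. Of 9 endosperm markers 8 passed the filter on low counts, and the summed level of all 9 lay between 202 and 373 CPM (reads scaled to the TMM-adjusted library size) in all libraries. This range hides changes of single markers. Against WT, 4 of the 8 tested were called higher and 0 lower in crwn1/2 at 6 DAP (median log2 difference 1.67). At 7 DAP 3 were higher and 1 lower (median 0.41). Between 7 and 6 DAP in WT 3 were higher and 3 lower, and between 8 and 7 DAP in crwn1/2 0 higher and 1 lower. The shares of all features are given with the histone results. All 6 seed coat markers passed the filter as well, with summed levels given beside the results. Within every group any pair of libraries differed by more than sampling noise, with a chi-square per feature of 8.64 to 34.2, so none looked like 1 library deposited more than once; repeat preparations of 1 pool of nuclei could exceed sampling noise too. A pair of libraries stood apart in the histone genes: replicate 1 of crwn1/2 at 7 DAP and replicate 2 of crwn1/2 at 8 DAP were above the rest of their groups. They also stood apart beyond the histone genes. Pairs with that 7 DAP library had a chi-square per feature of 25.1 to 28.4, against 11.6 to 15.6 for the other pairs of its group. Pairs with that 8 DAP library had 20.5 to 26.7, against 12.3 to 18.9.

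Of the 47 members 45 passed the filter and were tested; HTR10, a male gamete H3, and HTB8, the H2B.8 gene, did not. HTB8 encodes an H2B known from sperm and from seeds. HTB8 had 0, 0 and 0 counts in the crwn1/2 libraries at 6 DAP, 0, 0, 1, 2 and 0 at 7 DAP and 1, 2, 2 and 2 at 8 DAP. HTB8 in WT libraries had 4, 4, 2 and 2 counts at 7 DAP and 1, 1, 2 and 1 at 6 DAP, so no library held more than a few of its reads. The test was edgeR's quasi-likelihood test in 1 model of all 20 libraries, with Benjamini-Hochberg adjustment over 24696 features, and a gene was called at an adjusted p under 0.05. CPM is relative to the other RNA of a library: in bulk samples, fewer cells of a type and less RNA per cell cannot be told apart. The H3.1 genes encode the same protein and so do the H4 genes, and reads shared between near-identical copies, or between the neighbours HTR4 and HTR5, HTA12 and HTB10, and HTR13 and HTR9, could be split between genes, so single-gene values of these are uncertain.

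**Figure D1:**
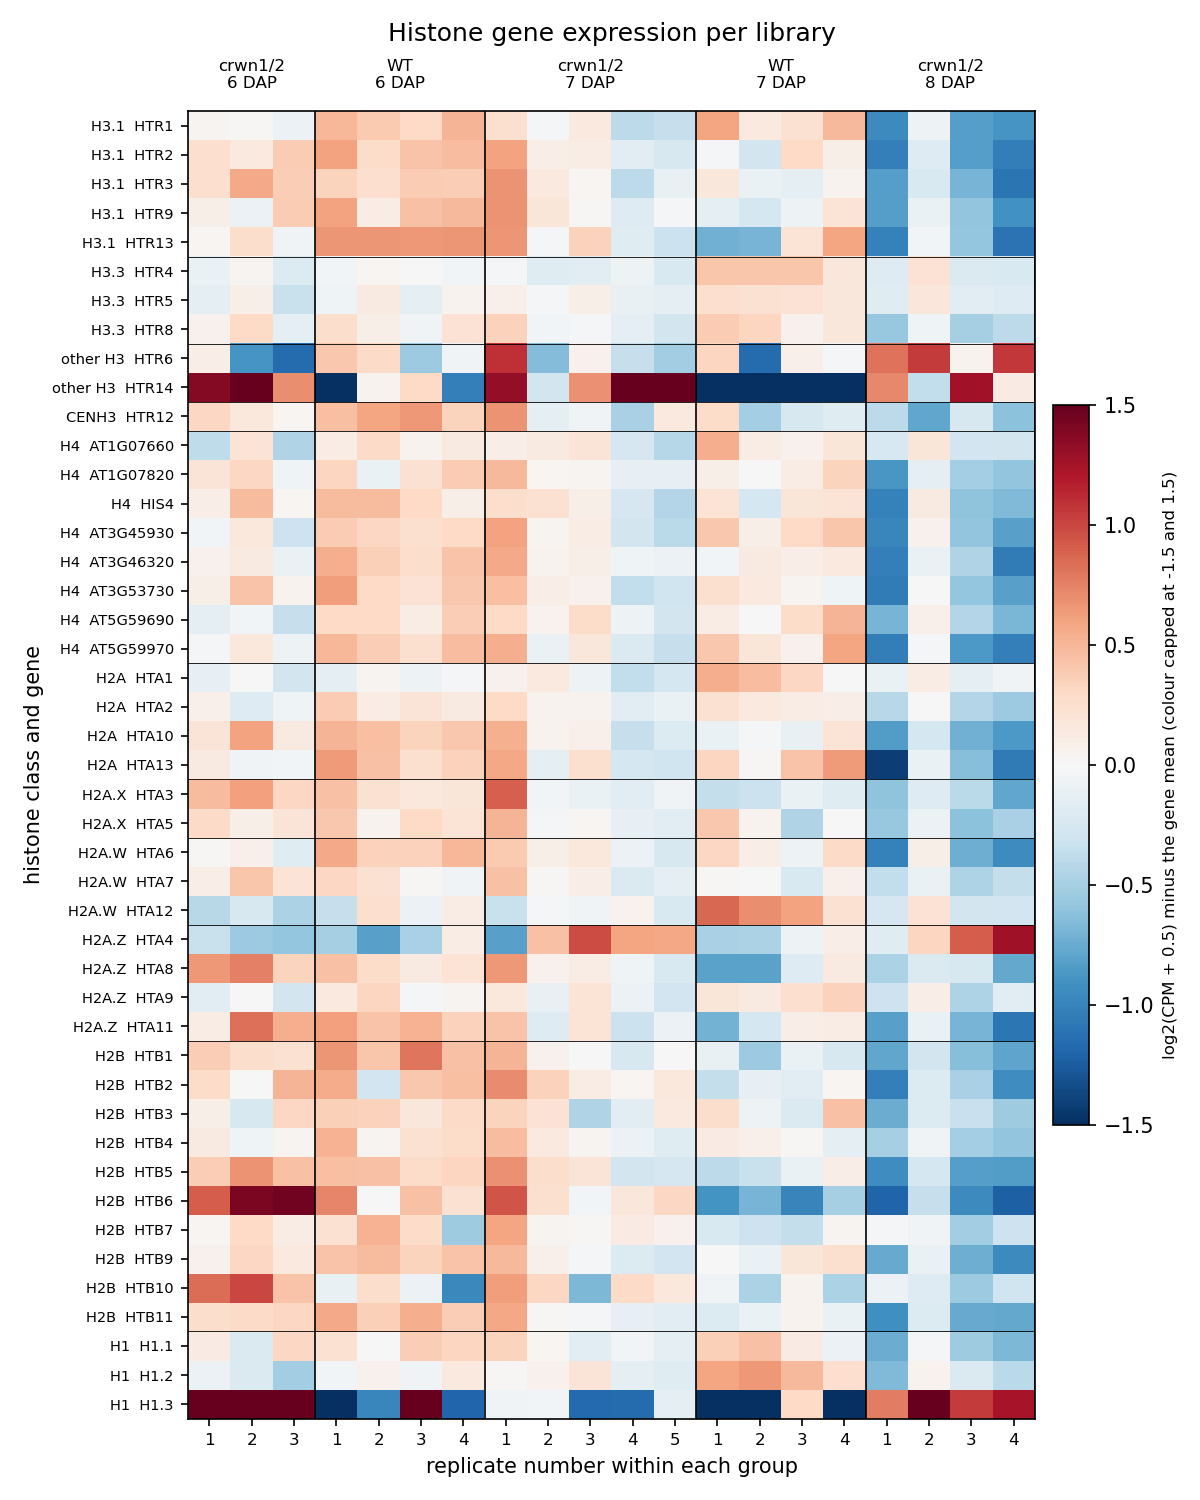
Each row is 1 of the 45 tested histone genes and each column 1 of the 20 libraries, by group and replicate; colour is log2(CPM + 0.5) minus the mean of that gene over all libraries. The crwn1/2 libraries at 8 DAP other than replicate 2 are low in most replication-coupled genes, and HTR14 is low in all 4 WT libraries at 7 DAP.

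Many histone genes had a lower level at 8 DAP than at 7 DAP in crwn1/2. Of 45 tested members 17 were lower and 0 higher at 8 DAP, while 1.73% of all features were called lower and 2.22% higher (3.95% in all). The median log2 difference was -0.58 over the members and -0.01 over all features. Of the 27 replication-coupled genes 15 fell, of the 15 tested variant genes 2 fell, and of the 3 linker genes 0 were called; the difference between these shares was not tested. The 3 H3.3 genes, which supply H3 outside S phase, had log2 differences between -0.36 and 0.04 and none was called. Markers of other seed tissues also differed between these days. Of 6 seed coat markers 1 was called lower at 8 DAP and all 6 had a log2 difference below 0 (median -0.70), with sums of 669.6 to 1057 CPM at 8 DAP and 989 to 1499 CPM at 7 DAP in crwn1/2. Of 5 tested embryo markers 1 was called lower and 4 were below 0, with sums of 21.6 to 36.6 CPM at 8 DAP and 27.2 to 41.01 CPM at 7 DAP in crwn1/2. The log2 ratios of the mean sums were -0.56 and -0.51, and both ranges overlapped; the part of these tissues in the histone result was not tested.

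Among H3.1 genes, HTR2 had the highest mean level. HTR2 in crwn1/2 had 193, 178 and 209.7 CPM at 6 DAP, 245, 173, 174, 145 and 136 CPM at 7 DAP and 79.2, 141, 90.7 and 78.5 CPM at 8 DAP. HTR2 in WT had 158, 132, 198 and 171 CPM at 7 DAP and 245, 196, 217 and 222 CPM at 6 DAP. Replicate 2 was the highest of the 8 DAP libraries and the only one to overlap the range at 7 DAP. The log2 difference between 8 and 7 DAP in crwn1/2 was -0.85 with an SE of 0.18 and an adjusted p of 0.00923. HTR1, HTR3 and HTR9 also fell, by 0.60, 0.79 and 0.74 on the log2 scale, and HTR13 had a difference of -0.77 (adjusted p = 0.083).

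HTR1 in crwn1/2 had 115, 114 and 105 CPM at 6 DAP, 133, 111, 125, 85.6 and 87.99 CPM at 7 DAP and 57.6, 106, 63.2 and 60.3 CPM at 8 DAP. HTR1 in WT had 170.0, 124, 132 and 157 CPM at 7 DAP and 159, 147, 138 and 159.8 CPM at 6 DAP. All 4 crwn1/2 libraries at 8 DAP were below all 4 WT libraries at 7 DAP, with a log2 difference of -1.02 with an SE of 0.18 and an adjusted p of 0.000671. The call of HTR1 between 8 and 7 DAP in crwn1/2 (-0.60 (adjusted p = 0.0464)) did not pass in 17 of 28 alternatives.

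H4 pairs with H3 in every nucleosome. AT5G59690 had the highest mean level of the H4 genes, with 390.1, 419 and 339 CPM at 6 DAP, 531, 448, 522, 408 and 356 CPM at 7 DAP and 266, 453, 319 and 268 CPM at 8 DAP in crwn1/2. AT5G59690 in WT had 466, 432, 524 and 616 CPM at 7 DAP and 532, 531, 465 and 559 CPM at 6 DAP. The 8 DAP libraries other than replicate 2 lay below every library of the other groups; the log2 difference between 8 and 7 DAP was -0.47 with an SE of 0.16 and an adjusted p of 0.101 and did not pass. AT5G59970, another H4 gene, had 149, 167 and 142 CPM at 6 DAP, 219, 140.2, 169, 129 and 118 CPM at 7 DAP and 73.1, 148, 82.1 and 73.6 CPM at 8 DAP in crwn1/2. AT5G59970 in WT had 199.5, 171, 158 and 226 CPM at 7 DAP and 212, 194, 178 and 208 CPM at 6 DAP. It fell between 7 and 8 DAP in crwn1/2, with a log2 difference of -0.72 with an SE of 0.19 and an adjusted p of 0.0357, and the groups overlapped through replicate 2 at 8 DAP. AT1G07820 and AT3G46320 were the other H4 genes that fell, by 0.59 and 0.74 on the log2 scale, so that 3 of 8 H4 genes were called.

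H2A and H2B form the dimers on either side of the H3-H4 core. HTA10, the H2A gene with the highest mean level, had 287, 381 and 275 CPM at 6 DAP, 363, 259.8, 265, 198 and 218 CPM at 7 DAP and 141, 209, 152 and 138 CPM at 8 DAP in crwn1/2. HTA10 in WT had 234, 248, 233 and 289.5 CPM at 7 DAP and 358, 344, 316 and 332 CPM at 6 DAP. Its log2 difference between 8 and 7 DAP in crwn1/2 was -0.70 with an SE of 0.16 and an adjusted p of 0.0151, and the groups overlapped through replicate 2 at 8 DAP. HTA13, the other H2A gene called, had 70.9, 62.2 and 62.4 CPM at 6 DAP, 96.2, 58.4, 76.2, 53.8 and 52.4 CPM at 7 DAP and 23.8, 59.9, 41.3 and 30.7 CPM at 8 DAP in crwn1/2. HTA13 in WT had 80.4, 65.3, 86.6 and 100.3 CPM at 7 DAP and 100.4, 87.5, 76.1 and 81.8 CPM at 6 DAP. It fell by 0.80 on the log2 scale between 7 and 8 DAP, and its replicate 1 at 8 DAP was the lowest library of all. The groups overlapped through replicate 2 at 8 DAP, and the HTA13 call passed in 20 of 28 alternatives.

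H2B had the most called genes: 6 of 10 fell between 7 and 8 DAP in crwn1/2. HTB11 had 326, 331 and 337 CPM at 6 DAP, 406, 274, 268, 248 and 241 CPM at 7 DAP and 143, 235, 159.5 and 159 CPM at 8 DAP in crwn1/2. HTB11 in WT had 234, 253, 279.9 and 252 CPM at 7 DAP and 400.1, 348, 394 and 349 CPM at 6 DAP. All 4 crwn1/2 libraries at 8 DAP were below all 5 at 7 DAP, with a log2 difference of -0.72 with an SE of 0.15 and an adjusted p of 0.00941. HTB1, HTB2, HTB5, HTB6 and HTB9 fell by 0.69, 0.92, 0.86, 1.28 and 0.63 on the log2 scale.

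The variant genes that fell between 7 and 8 DAP in crwn1/2 were HTA3, for an H2A.X, and HTA6, for an H2A.W. HTA6 in crwn1/2 had 153, 159.7 and 134 CPM at 6 DAP, 199.6, 162, 170.0, 142 and 129 CPM at 7 DAP and 75.2, 162, 90.8 and 78.4 CPM at 8 DAP. HTA6 in WT had 188, 163, 144 and 186 CPM at 7 DAP and 225, 193, 193 and 214 CPM at 6 DAP. Its log2 difference was -0.66 with an SE of 0.18 and an adjusted p of 0.038, and that of HTA3 was -0.65 with an SE of 0.18 and an adjusted p of 0.0414. In HTA6 the groups overlapped through replicate 2 at 8 DAP, and the call passed in 20 of 28 alternatives. HTA5, the H2A.X gene with the higher mean level, had 151, 131 and 142 CPM at 6 DAP, 176, 121, 127, 114 and 109.9 CPM at 7 DAP and 83.5, 117, 80.7 and 88.4 CPM at 8 DAP in crwn1/2. HTA5 in WT had 164, 128, 90.4 and 124 CPM at 7 DAP and 164, 128, 152 and 143 CPM at 6 DAP. Its difference of -0.49 (adjusted p = 0.0941) did not pass, and the groups overlapped at 1 library, replicate 2 at 8 DAP.

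The number of calls in this comparison and the members' median depended on single libraries. Without crwn1/2 replicate 2 at 8 DAP 27 members were called, without replicate 1 at 8 DAP 6, without replicate 3 at 8 DAP 8 and without replicate 4 at 8 DAP 6, and the medians were -0.71, -0.48, -0.57 and -0.51 in that order. Without crwn1/2 replicate 1 at 7 DAP 7 members were called, with a median of -0.40, and with both libraries that stood apart left out 23, all lower. With the percentage of reads outside features as a model term 1 member was called, HTB6, with a median of -0.50 over the members. That share was 4.76% to 5.30% in crwn1/2 at 8 DAP and 4.05% to 4.68% in crwn1/2 at 7 DAP, so the groups did not overlap and the share and the day cannot be told apart.

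Summed over the 27 replication-coupled genes, crwn1/2 libraries had 4027, 4328 and 3973 CPM at 6 DAP, 5227, 3959.6, 3967, 3257 and 3239 CPM at 7 DAP and 2146, 3509, 2462 and 2174 CPM at 8 DAP. WT libraries had 3915, 3637, 3962 and 4282 CPM at 7 DAP and 5117, 4506, 4601 and 4789 CPM at 6 DAP. The group means were 4109 ± 192 (SD, n = 3), 3930.0 ± 809 (n = 5) and 2573 ± 640.4 CPM (n = 4) in crwn1/2 at 6, 7 and 8 DAP, against 3949 ± 264 and 4753 ± 269.6 CPM (n = 4 each) in WT at 7 and 6 DAP. The 8 DAP libraries other than replicate 2 were below every other library. The log2 ratio of the means was -0.61 for crwn1/2 at 8 against 7 DAP, where the ranges overlapped, and -0.62 for 8 DAP crwn1/2 set against 7 DAP WT, where they did not. At 6 DAP crwn1/2 was below WT without overlap (log2 ratio -0.21), and at 7 DAP the means differed by -0.01 and the ranges overlapped.

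For the sum over the 17 variant genes the means were 2877 ± 355 (SD, n = 3), 2748 ± 335 (n = 5) and 2317 ± 364 CPM (n = 4) in crwn1/2 at 6, 7 and 8 DAP, against 3060.0 ± 51.03 and 3005 ± 129.8 CPM (n = 4 each) in WT at 7 and 6 DAP. The log2 ratio for crwn1/2 at 8 against 7 DAP was -0.25, and the ranges overlapped. H3.3, the largest class in that sum, had a log2 ratio of -0.11, while H2A.X had -0.56, H2A.W -0.47, H2A.Z -0.47, CENH3 -0.58 and the other H3 genes -0.69, each with overlapping ranges. Among replication-coupled classes the log2 ratio was -0.76 for H3.1, -0.54 for H4, -0.44 for H2A and -0.70 for H2B, and H2B alone did not overlap. Between the genotypes at 7 DAP the variant sum had a log2 ratio of -0.16, with overlap, and its H3.3 part -0.29, without overlap. For 8 DAP crwn1/2 set against 7 DAP WT the variant sum had -0.40, its H3.3 part -0.40 and the linker H1 sum -0.68, each without overlap. H2A.W had -0.55, H2A.X -0.37, H2A.Z -0.37 and CENH3 -0.36 there, with overlap. The other H3 genes were higher there, with 2.74 and no overlap. H3.1 and H3.3 summed apart gave a log2 ratio of H3.1 to H3.3, which is read only between groups since gene length enters it. In crwn1/2 libraries it was -1.19, -1.35 and -0.92 at 6 DAP, -0.96, -1.29, -1.33, -1.58 and -1.45 at 7 DAP and -2.10, -1.69, -1.90 and -2.20 at 8 DAP. In WT libraries it was -1.69, -1.93, -1.54 and -1.33 at 7 DAP and -0.90, -1.20, -0.90 and -1.01 at 6 DAP. Its mean was lower at the later day in both genotypes, without overlap between 8 and 7 DAP in crwn1/2 and between 7 and 6 DAP in WT. These sums carry no test, since the genes were chosen with results known.

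**Figure D2:**
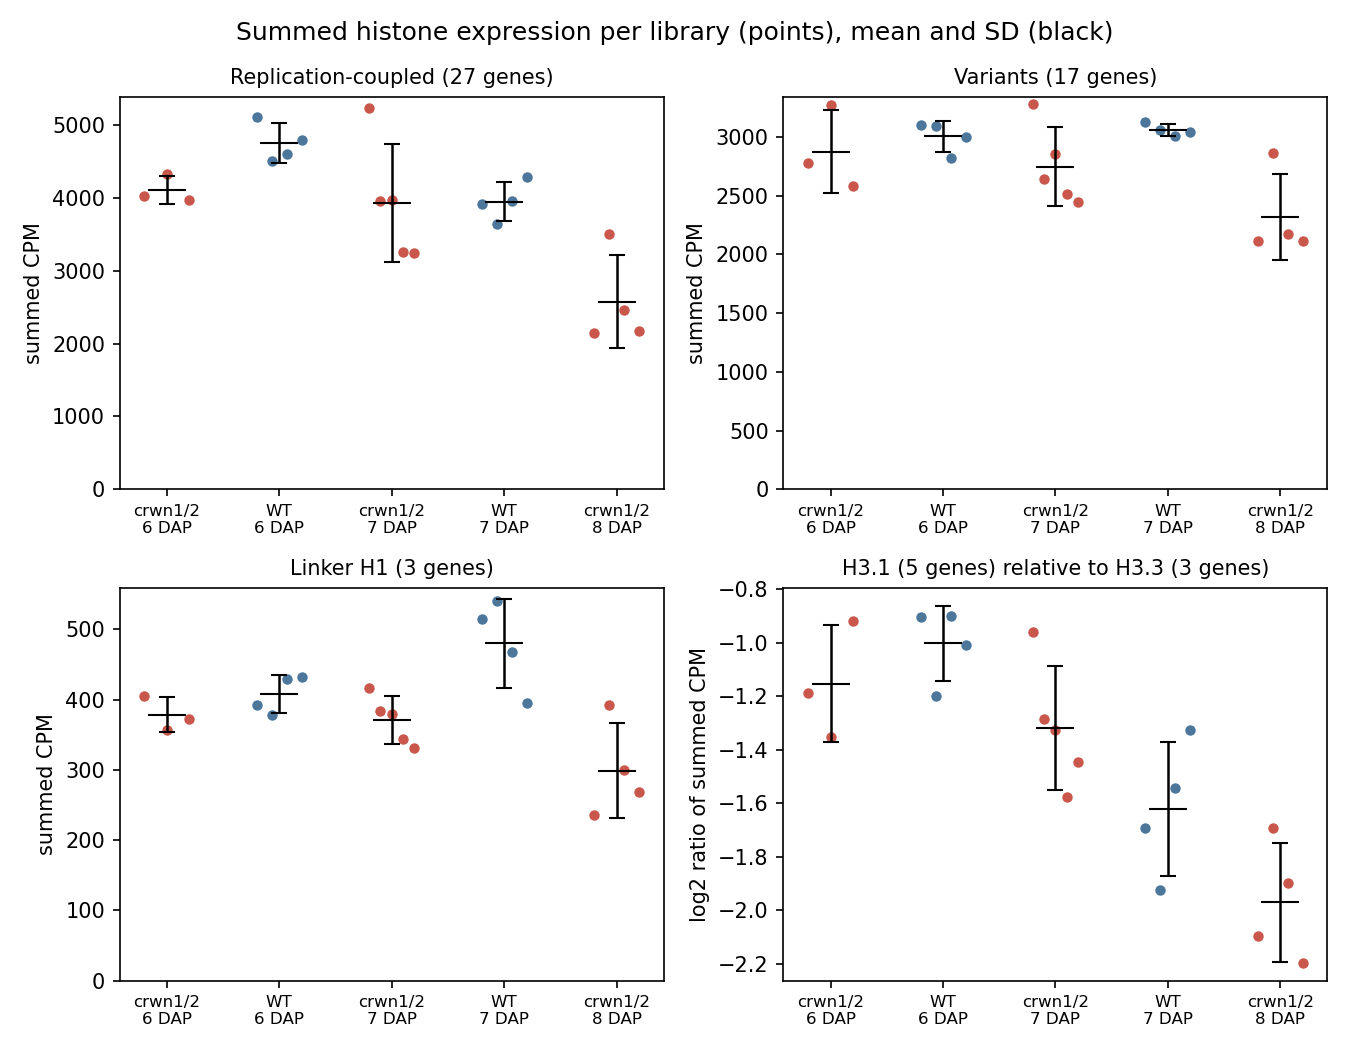
Summed CPM of the replication-coupled, variant and linker histone genes, and the log2 ratio of H3.1 to H3.3 sums, per library (red points crwn1/2, blue points WT) with group mean and SD in black. The lowest replication-coupled sums are those of crwn1/2 at 8 DAP, with a mean of 2573 CPM against 3930.0 CPM in crwn1/2 at 7 DAP.

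Set against 7 DAP WT, crwn1/2 at 8 DAP had 22 members lower and 2 higher, beside 7.04% of all features called lower and 6.90% called higher (13.9% in all). This comparison differs in genotype and day together and shares the crwn1/2 libraries at 8 DAP with the one above. The embryo marker sum was 21.6 to 36.6 CPM in crwn1/2 at 8 DAP and 58.8 to 99.1 CPM in WT at 7 DAP, without overlap, and the seed coat marker sum 669.6 to 1057 CPM in crwn1/2 at 8 DAP and 920.0 to 1304 CPM in WT at 7 DAP, with overlap. By marker, 1 of 5 tested embryo markers was called lower and 4 were below 0, with a median log2 difference of -0.37. The lower members were 15 of 27 replication-coupled, 5 of 15 tested variant and 2 of 3 linker genes, and the higher ones were HTR14 and H1.3. The lower variant genes included 2 of 3 H3.3 genes, HTR4 (-0.46 (adjusted p = 0.016)) and HTR8 (-0.61 (adjusted p = 0.00938)). The largest log2 differences among the lower members were -1.10 with an SE of 0.22 and an adjusted p of 0.00247 for HTA13, -1.02 with an SE of 0.18 and an adjusted p of 0.000671 for HTR1 and -1.004 with an SE of 0.20 and an adjusted p of 0.00245 for AT5G59970, and in each the 2 groups did not overlap. The count was 12 without crwn1/2 replicate 1 at 8 DAP and 14 without replicate 4 at 8 DAP; without replicate 2 it was 35. With no filter on low counts it was 2 higher and 8 lower, in a fit where the median over all features stood 0.28 lower on the log2 scale.

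Between the genotypes at the same day few histone genes differed. At 6 DAP 3 members were higher in crwn1/2 and 0 lower, beside 6.38% and 6.26% of all features (12.6% in all). At 7 DAP 2 were higher and 4 lower, beside 10.9% and 13.5% (24.4% in all). The members' median log2 difference was -0.18 at 6 DAP and 0.05 at 7 DAP, against -0.01 and 0.02 over all features. At 6 DAP the higher calls were 6.67% of the tested members, near the share of all features, while 35 of 45 members were below 0. At 7 DAP the higher calls were 4.44% and the lower calls 8.89% of the tested members, both under the shares of all features. At that day 21 members were below 0. The 3 genes higher at 6 DAP were HTR14, HTB6 and H1.3; HTR14 and HTB6 were the 2 higher at 7 DAP. The genes lower at 7 DAP were HTA12, H1.2, HTR4 and HTA1. No H3.1 gene and no H4 gene passed at either day.

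HTR14, an H3 gene outside the H3.1 and H3.3 sets, had the largest difference of any histone gene. HTR14 in crwn1/2 had 12.3, 34.9 and 7.55 CPM at 6 DAP, 11.8, 3.59, 7.47, 16.4 and 26.5 CPM at 7 DAP and 7.63, 3.35, 11.4 and 4.89 CPM at 8 DAP. HTR14 in WT had 0.380, 0.401, 0.336 and 0.295 CPM at 7 DAP and 0.963, 4.62, 5.58 and 1.92 CPM at 6 DAP, which at 7 DAP came to 3, 3, 3 and 2 counts. Every crwn1/2 library was above every WT library of the same day, and the 4 WT libraries at 7 DAP were below all others. The log2 difference was 2.48 with an SE of 0.60 and an adjusted p of 0.00795 at 6 DAP, 5.16 with an SE of 0.73 and an adjusted p of 4.46e-05 at 7 DAP and 4.23 with an SE of 0.74 and an adjusted p of 0.000684 for 8 DAP crwn1/2 set against 7 DAP WT. The 7 DAP and 8 DAP calls passed in every alternative, and the 6 DAP call did not pass without crwn1/2 replicate 2 at 6 DAP (1.63, adjusted p = 0.114).

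HTB6, a replication-coupled H2B gene, was higher in crwn1/2 at both shared days. HTB6 in crwn1/2 had 46.6, 66.5 and 68.03 CPM at 6 DAP, 47.97, 29.1, 24.02, 27.7 and 30.6 CPM at 7 DAP and 10.5, 19.4, 12.4 and 10.3 CPM at 8 DAP. HTB6 in WT had 13.1, 14.98, 12.2 and 17.4 CPM at 7 DAP and 41.2, 24.8, 33.7 and 28.97 CPM at 6 DAP. The genotypes did not overlap at either day, and the mean level was lower at each later day in both genotypes. The log2 difference between crwn1/2 and WT was 0.91 with an SE of 0.24 and an adjusted p of 0.0147 at 6 DAP and 1.15 with an SE of 0.23 and an adjusted p of 0.00127 at 7 DAP. At 6 DAP it did not pass without crwn1/2 replicate 2 or 3 or without WT replicate 2. At 7 DAP it did not pass with the covariate for reads outside features (0.93, adjusted p = 0.177). That share was 4.05% to 4.68% in crwn1/2 and 4.81% to 5.92% in WT at 7 DAP. The genotypes did not overlap in it, so the share and the genotype cannot be told apart at that day.

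H1.3, a linker histone known to rise under drought and low light, was higher in crwn1/2 at 6 DAP and at 8 DAP when set against 7 DAP WT. H1.3 in crwn1/2 had 35.3, 40.6 and 27.4 CPM at 6 DAP, 5.08, 5.11, 2.08, 2.11 and 4.74 CPM at 7 DAP and 9.37, 19.7, 11.5 and 13.1 CPM at 8 DAP. H1.3 in WT had 0.254, 0.134, 6.61 and 0.736 CPM at 7 DAP and 1.44, 2.43, 19.6 and 2.04 CPM at 6 DAP. WT replicate 3 stood far above its group at each day, though it was below the crwn1/2 libraries at 6 DAP. At 7 DAP it was above all 5 crwn1/2 libraries, so the genotypes overlapped there. The log2 difference was 2.44 with an SE of 0.76 and an adjusted p of 0.035 at 6 DAP, a call lost in 7 alternatives, DESeq2 among them (2.45, adjusted p = 0.067); without WT replicate 3 at 6 DAP it was 4.13. It was 2.73 with an SE of 0.78 and an adjusted p of 0.0226 for 8 DAP crwn1/2 set against 7 DAP WT and did not pass without WT replicate 1, 2 or 4 at 7 DAP; without WT replicate 3 at 7 DAP it was 5.15. Between 7 and 6 DAP in crwn1/2 H1.3 fell by 3.17 on the log2 scale, and all alternatives gave that call.

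**Figure D3:**
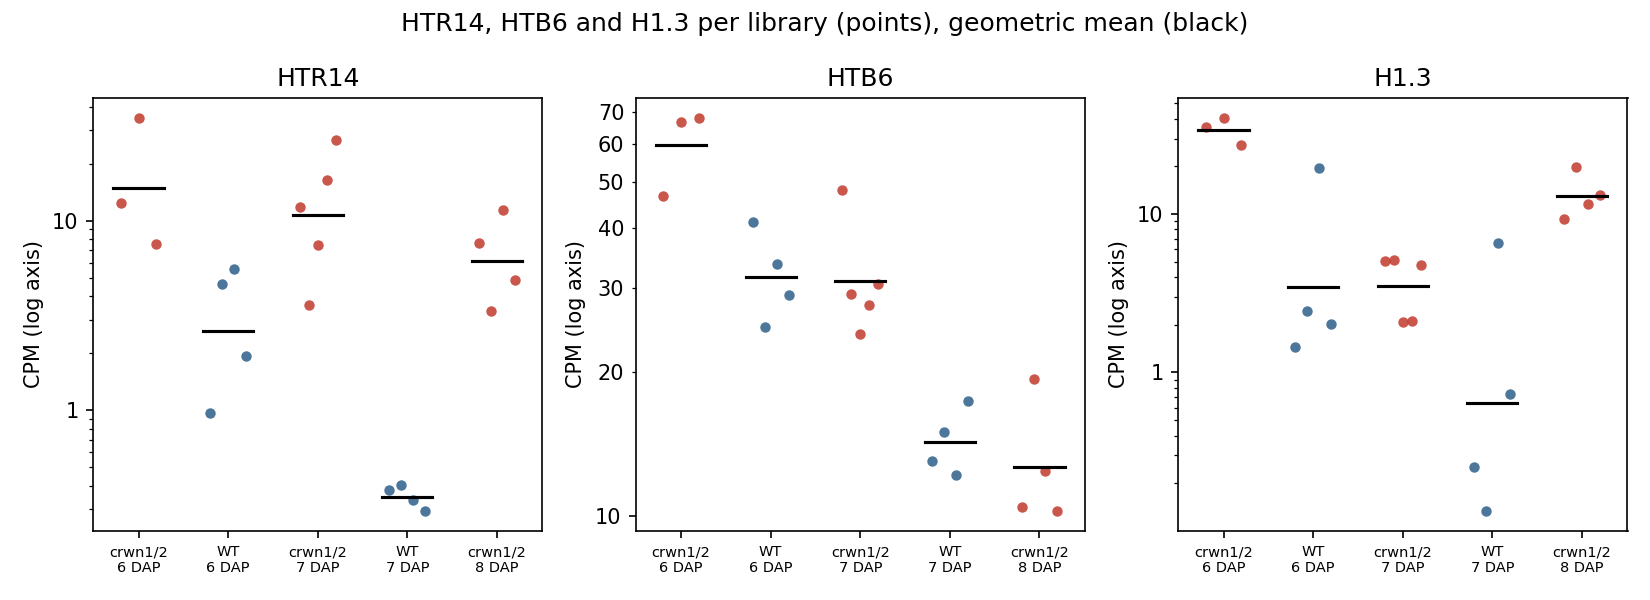
CPM of HTR14, HTB6 and H1.3 per library on log axes, with the geometric mean of each group as a black line; red points are crwn1/2 and blue points WT. HTR14 in WT at 7 DAP lies between 0.295 and 0.401 CPM, below the 3.59 to 26.5 CPM of crwn1/2 at 7 DAP.

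The seed coat markers also differed at 6 DAP: 3 of 6 were higher in crwn1/2 and 1 lower, and their summed level was 2018 to 2411 CPM in crwn1/2 against 1364 to 1642 CPM in WT, without overlap. At 7 DAP 2 were higher and 1 lower, and the sums overlapped, with 989 to 1499 CPM in crwn1/2 and 920.0 to 1304 CPM in WT. None of the 6 was at 0 in any library. Of 6 embryo markers 5 were tested; 1 was higher (WOX2) and 1 lower (WOX8) in crwn1/2 at 6 DAP, and WOX8 was lower at 7 DAP. Their sum was 25.5 to 32.7 CPM in crwn1/2 and 55.7 to 74.01 CPM in WT at 6 DAP, and 27.2 to 41.01 CPM in crwn1/2 and 58.8 to 99.1 CPM in WT at 7 DAP. The lower sum was not shared by most tested markers at 6 DAP, where 1 of 5 had a log2 difference below 0 (median 0.45). At 7 DAP 3 of 5 were below 0 (median -0.67). WUS and DRNL were at 0 in some libraries. The part of these tissues in the histone results was not tested.

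The genes lower in crwn1/2 at 7 DAP were of several classes. HTA12, an H2A.W gene, had 22.99, 26.1 and 22.02 CPM at 6 DAP, 24.3, 30.3, 29.8, 32.1 and 26.4 CPM at 7 DAP and 25.9, 36.1, 25.3 and 25.3 CPM at 8 DAP in crwn1/2. HTA12 in WT had 56.4, 50.3, 47.4 and 36.2 CPM at 7 DAP and 24.3, 36.9, 29.1 and 33.4 CPM at 6 DAP. The genotypes did not overlap at 7 DAP, and the log2 difference was -0.73 with an SE of 0.16 and an adjusted p of 0.00284. H1.2, one of the main somatic linker histones, had 189, 174 and 140.1 CPM at 6 DAP, 203, 211, 229.6, 182 and 178 CPM at 7 DAP and 127, 209, 173 and 152 CPM at 8 DAP in crwn1/2. H1.2 in WT had 303, 316, 282 and 239 CPM at 7 DAP and 196, 210.4, 195 and 223 CPM at 6 DAP. Its difference was -0.51 with an SE of 0.14 and an adjusted p of 0.0106, again without overlap. HTR4, an H3.3 gene, had 324, 357 and 299 CPM at 6 DAP, 340.0, 305, 310.0, 328 and 295 CPM at 7 DAP and 302, 402, 297 and 295 CPM at 8 DAP in crwn1/2. HTR4 in WT had 462, 464, 461 and 390.1 CPM at 7 DAP and 338, 354, 345 and 337 CPM at 6 DAP. It was lower in all 5 crwn1/2 libraries than in any WT library at 7 DAP, by -0.49 with an SE of 0.12 and an adjusted p of 0.0042. HTA1, a replication-coupled H2A gene, had a difference of -0.44 with an SE of 0.13 and an adjusted p of 0.0165.

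HTR5, the H3.3 gene with the highest mean level, was not called between genotypes. HTR5 in crwn1/2 had 905, 1066 and 792 CPM at 6 DAP, 1058, 992, 1067, 925 and 913 CPM at 7 DAP and 880.2, 1122, 892 and 874 CPM at 8 DAP. HTR5 in WT had 1188, 1171, 1164 and 1124 CPM at 7 DAP and 957, 1097, 909 and 1038 CPM at 6 DAP. All 5 crwn1/2 libraries at 7 DAP were below the 4 WT libraries at 7 DAP, and the log2 difference was -0.23 with an SE of 0.12 and an adjusted p of 0.179. The 4 calls of lower genes at 7 DAP did not pass with no filter on low counts or with the covariate for reads outside features. The covariate took the count to 1, but its values did not overlap between the genotypes at 7 DAP, so the 2 cannot be told apart. With no filter the split was 7 higher and 2 lower, in a fit where the median over all features stood 0.49 lower on the log2 scale and that over the members 0.21 higher. The count at 6 DAP was 0 without crwn1/2 replicate 2, 1 without crwn1/2 replicate 3 and 1 without WT replicate 2.

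**Figure D4:**
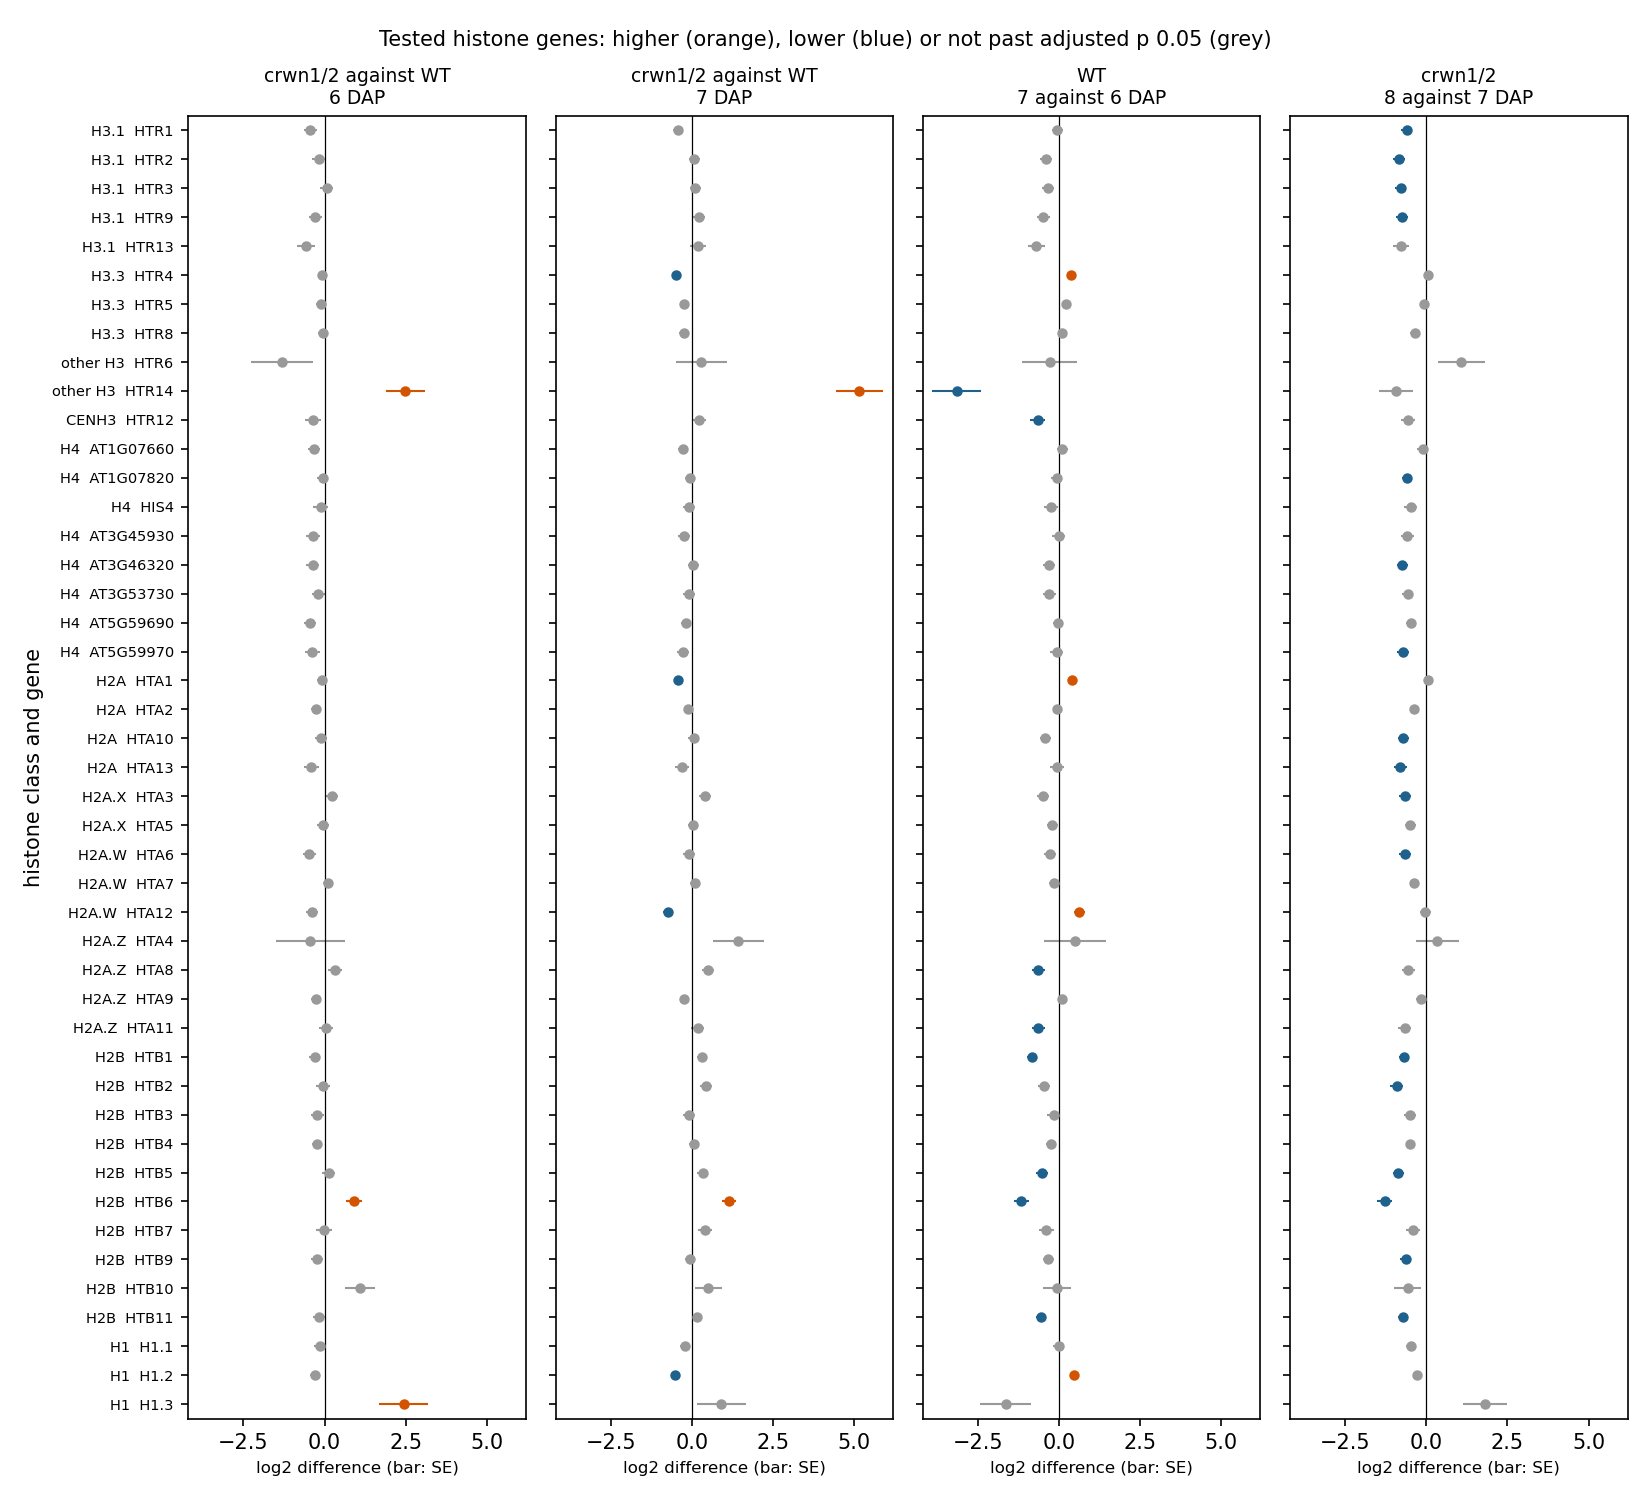
Log2 difference with its SE for each tested histone gene in 4 comparisons; orange marks a higher call, blue a lower call and grey no call. In crwn1/2 at 8 against 7 DAP 17 genes are lower, most of them replication-coupled, while HTR14 stands out between genotypes with 5.16 at 7 DAP.

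In WT 8 members were lower and 4 higher at 7 than at 6 DAP, beside 10.5% and 9.58% of all features (20.0% in all), and the members' median was -0.25 against 0.02 over all features. The lower genes were HTR14, HTR12, the H2A.Z genes HTA8 and HTA11, and the H2B genes HTB1, HTB5, HTB6 and HTB11. The higher ones were HTA12, HTR4, HTA1 and H1.2, the 4 genes that were lower in crwn1/2 than in WT at 7 DAP. These comparisons share the WT libraries at 7 DAP. The higher calls were 8.89% of the tested members, near the share of all features, and the lower calls 17.8%. Between the WT days the HTR4 call passed in 18 of 28 alternatives, that of H1.2 in 22 and that of HTA12 in 25. HTB11 fell by 0.55 and HTB6 by 1.16 on the log2 scale, without overlap between days in either.

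CENH3, coded by HTR12, replaces H3 at centromeres. HTR12 in crwn1/2 had 25.3, 22.8 and 20.9 CPM at 6 DAP, 32.8, 18.4, 19.7, 14.4 and 22.6 CPM at 7 DAP and 15.5, 11.7, 17.3 and 13.1 CPM at 8 DAP. HTR12 in WT had 24.7, 14.2, 17.3 and 17.97 CPM at 7 DAP and 28.2, 31.02, 32.2 and 25.9 CPM at 6 DAP. All WT libraries at 7 DAP were below those at 6 DAP, with a log2 difference of -0.66 with an SE of 0.22 and an adjusted p of 0.0384. HTA11, the H2A.Z gene with the highest mean level, had 224, 369 and 304 CPM at 6 DAP, 280.1, 182, 239, 165 and 196 CPM at 7 DAP and 118, 194, 128 and 97.8 CPM at 8 DAP in crwn1/2. HTA11 in WT had 127, 173, 223 and 224 CPM at 7 DAP and 319, 279, 299 and 265 CPM at 6 DAP. The WT days did not overlap, with a log2 difference of -0.64 with an SE of 0.21 and an adjusted p of 0.0348, while in crwn1/2 the difference between 8 and 7 DAP was -0.66 (adjusted p = 0.0652). The WT count depended on single libraries: it was 3 without WT replicate 1 at 6 DAP, 6 without WT replicate 3 at 6 DAP, and 5 without WT replicate 1 or without WT replicate 2 at 7 DAP. It was 4 with the covariate and, with no filter, 0 higher and 16 lower, where the median over all features stood 0.29 higher.

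Between 7 and 6 DAP in crwn1/2 2 members were lower and 0 higher, beside 4.64% and 6.57% of all features (11.2% in all). The lower calls were 4.44% of the tested members, near the share of all features. The 2 members were H1.3 and HTB6 (-0.92 (adjusted p = 0.0093)). The count was 6 without crwn1/2 replicate 1 at 7 DAP and 1 without crwn1/2 replicate 2 or without replicate 3 at 6 DAP. With crwn1/2 at 7 DAP set against WT at 6 DAP 2.22% of the tested members were higher and 2.22% lower. Both were below the shares of all features, 3.99% and 3.05%. The calls were 1 higher member, HTR14 (2.00 (adjusted p = 0.0292)), and 1 lower, HTB1 (-0.51 (adjusted p = 0.0381)). This count ran from 0 to 7 as single libraries were left out: 7 without crwn1/2 replicate 1 at 7 DAP, 0 without crwn1/2 replicate 4 or 5 at 7 DAP or without WT replicate 1 at 6 DAP, and 1 without crwn1/2 replicate 2 or 3 at 7 DAP, without crwn1/2 replicate 1 or 3 at 6 DAP, or without WT replicate 3 or 4 at 6 DAP.

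An interaction term asked whether the genotype difference at 7 DAP was unlike that at 6 DAP. It was called for 0 members by edgeR, beside 1.85% of all features positive and 1.64% negative (3.49% in all), with 3 members at an unadjusted p under 0.05. DESeq2 called 1, HTR14, which had 2.68 with an SE of 0.95 and an adjusted p of 0.122 in edgeR. No other tool or setting called a member here except the fit with no filter, which also called 1, HTR14.

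Histone chaperones and loaders carry histones to DNA, and 29 of their genes were examined. At 6 DAP 0 were called by edgeR, with 2 at an unadjusted p under 0.05. At 7 DAP 9 were higher and 0 lower in crwn1/2, and 8 were lower and 1 higher in WT at 7 than at 6 DAP. Of all features 10.9% were called higher and 13.5% lower in crwn1/2 at 7 DAP, and 10.5% lower and 9.58% higher between the WT days. The median log2 difference of the 29 genes between genotypes was 0.12 at 6 DAP and 0.27 at 7 DAP. The largest at 7 DAP were TSK, which reads newly replicated H3.1 chromatin (1.08 (adjusted p = 0.00984)), and ARP6, a subunit of the SWR1 complex that loads H2A.Z (0.76 (adjusted p = 0.00262)). With 8 DAP crwn1/2 set against 7 DAP WT, 3 were higher, led by ARP6 (0.57 (adjusted p = 0.0305)) and INO80 (0.52 (adjusted p = 0.012)), and 2 lower, MSI1 (-0.50 (adjusted p = 0.0383)) and SSRP1 (-0.44 (adjusted p = 0.0478)). These were 10.3% and 6.9% of the 29 genes, near the 6.90% and 7.04% of all features. MSI1 is a CAF-1 subunit that also acts in other complexes, and SSRP1 is part of the chaperone FACT. Between 8 and 7 DAP in crwn1/2 DDM1, the remodeller that places H2A.W, was the 1 lower gene (-0.89 (adjusted p = 0.0093)) and INO80 the 1 higher (0.46 (adjusted p = 0.0376)). Each was 3.45% of the 29 genes, near the 1.73% of all features called lower and 2.22% called higher.

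Of 12 S-phase genes 2 were higher in crwn1/2 at 7 DAP, MCM5 of the replicative helicase (0.68 (adjusted p = 0.00703)) and TSO2, a ribonucleotide reductase subunit (0.54 (adjusted p = 0.0366)), a share near the 10.9% of all features. Of the 12, 0 had a log2 difference below 0, and the median was 0.42 against 0.02 over all features. Their sums overlapped, with 371.9 to 691.1 CPM in crwn1/2 and 254.4 to 422.4 CPM in WT. The 691.1 CPM was that of crwn1/2 replicate 1, a library that stood apart in the histone genes. The other crwn1/2 libraries at 7 DAP had 371.9 to 416.0 CPM. How far the S-phase difference rests on replicate 1 was not tested. Between 8 and 7 DAP in crwn1/2 4 of 12 were lower, beside 1.73% of all features, and all 12 had a log2 difference below 0, with a median of -0.58; PCNA1, the sliding clamp, had -1.11 (adjusted p = 0.00952). Of 6 mitosis genes 3 were lower there, CDKB1;1 (-0.92 (adjusted p = 0.0152)), CYCB1;2 (-0.77 (adjusted p = 0.0483)) and KNOLLE (-0.54 (adjusted p = 0.0378)), with a median of -0.56. In WT 2 of the S-phase genes and 3 of the mitosis genes were lower at 7 than at 6 DAP, with medians of -0.51 and -0.50, beside 10.5% of all features; for the S-phase genes this count is near that share. With 8 DAP crwn1/2 set against 7 DAP WT, 0 of the S-phase genes were called by edgeR, with 3 at an unadjusted p under 0.05, and 2 of the mitosis genes were lower, AUR1 (-0.65 (adjusted p = 0.0136)) and KNOLLE (-0.53 (adjusted p = 0.0259)). Of all features 6.90% were called higher and 7.04% lower there.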

How the data were processed

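The 20 mRNA files hold deposited whole-number counts of reads per gene and transposable element, made with STAR 2.7.1a and HTSeq on TAIR10 per the submitters' processing notes; the annotation version, strand setting and treatment of multiply mapped reads are not given in the sources used here. Library preparation used the SMART-Seq mRNA LP kit per the labels' protocols. Summary lines that name no feature (4.05% to 5.92% of reads outside features and 1.19% to 1.52% ambiguous) stayed out of library sizes and tests. Each of 12 deposited H3K27me3 peak lists carried the authors' read count per peak; they were not placed on genes here, and the 36 CUT&RUN samples enter no result.

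Gene names were matched to RefSeq (TAIR10.1), where all 47 members had an entry. In edgeR 4.0.16, features were kept by filterByExpr (minimum count 10, minimum total 15), scaled by TMM and fitted with a term per group over all 20 libraries, giving 8 comparisons by the quasi-likelihood test with Benjamini-Hochberg adjustment over 24696 features. SE is the log2 difference divided by the root of F. Members and lists were chosen with earlier results of these data known. Named genes were the member with the highest mean CPM of each of 12 classes and the 3 largest called in each direction per genotype comparison; other called members are named as well. HTR13, HTA4, HTR6 and HTR10 fall outside that rule and were chosen after their values were seen. Alternatives were RLE scaling, DESeq2 1.42.0, no filter, a replicate block, the percentage of reads outside features as a model term (the covariate), nuclear genes only, only the groups compared, each library left out, and, chosen after seeing the data, 2 libraries left out together. The fit was tested on simulated data. R 4.3.3 and matplotlib 3.10.9 were used. The replicate numbers did not pair the libraries, as given in the closing section.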

Additional observations from a re-analysis of the deposited data

Results flagged for a closer look

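Among 88 sets of values of 1 gene or sum in 1 group of 4 or 5 libraries, 13 held a library separated from the rest by most of the group's range; chance flags about 1 in 20 such groups, and the genes are not independent. In replicate 2 of crwn1/2 at 8 DAP HTR5 was at 1122 CPM against 874.3 to 892.1 CPM in the other 3 libraries, HTR4 at 401.6 CPM against 294.6 to 301.8 CPM, HTR1 at 106.2 CPM against 57.58 to 63.21 CPM, AT5G59970 at 147.8 CPM against 73.05 to 82.1 CPM, and HTA12 at 36.11 CPM against 25.32 to 25.88 CPM. The summed variant genes of that library were at 2862 CPM against 2115 to 2171 CPM. In replicate 1 of crwn1/2 at 7 DAP HTA5 was at 175.7 CPM against 109.9 to 126.6 CPM, HTB11 at 405.7 CPM against 241.0 to 274.2 CPM, and HTB6 at 47.97 CPM against 24.02 to 30.59 CPM.

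In WT replicate 3, H1.3 was at 19.59 CPM at 6 DAP against 1.444 to 2.433 CPM in the other libraries, and at 6.61 CPM at 7 DAP against 0.1338 to 0.7363 CPM. HTB8 in WT replicate 3 at 6 DAP was at 0.2594 CPM against 0.1132 to 0.1216 CPM, which rests on 2 counts against 1 in each of the others. HTR4 in WT replicate 4 at 7 DAP was the low one, at 390.1 CPM against 461.5 to 463.8 CPM. What sets these libraries apart was not tested.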

How the results depend on the processing

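Over 28 alternatives per comparison no called named gene changed direction, and of 1422 alternative values 1252 kept their direction and side of the threshold or, for counts and sums, moved little, 129 named-gene calls no longer passed and 41 counts moved by more than 1.5 times. The cause was not tested. The calls at 6 DAP (3) were 6 with only the groups compared, 3 higher and 3 lower, and 0 to 4 with a library left out. At 7 DAP (6) the covariate, whose values did not overlap between the genotypes there, gave 1. With 8 DAP crwn1/2 set against 7 DAP WT (24) no filter gave 10, and leaving out a library 12 to 35. With 7 DAP crwn1/2 set against 6 DAP WT (2) no filter gave 1, the replicate block 0, only the groups compared 5, both libraries that stood apart left out 12, and a library left out 0 to 7. For WT at 7 against 6 DAP (12) the covariate gave 4, both libraries left out 19, and a library left out 3 to 16. For crwn1/2 at 7 against 6 DAP (2) both left out gave 10, and a library left out 1 to 6. For crwn1/2 at 8 against 7 DAP (17) the covariate gave 1, only the groups compared 11, and a library left out 6 to 27. The genotype effect between days (0) gave 1 with no filter and 1 with DESeq2. The summed replication-coupled ratio of crwn1/2 at 8 against 7 DAP ran from -0.80 to -0.49. That of crwn1/2 against WT at 7 DAP (-0.01) changed sign, from -0.13 to 0.06 with a library left out. The sums had 10 to 12 alternatives each.

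No filter shifted the median over all features by -0.13, -0.49 and -0.28 (log2) in the genotype comparisons at 6 DAP, 7 DAP and 8 against 7 DAP and by 0.29 between the WT days; RLE scaling, nuclear genes only and DESeq2 shifted it by at most 0.04. Replicate numbers shared between groups did not pair the libraries: over 36 same-numbered pairs the correlation of deviations ran from -0.20 to 0.14, with 2 over 0.1. The replicate block gave 3, 6, 24, 0, 10, 2, 14 and 0 calls in the 8 comparisons, against 3, 6, 24, 2, 12, 2, 17 and 0 without it. An alternative that used coding length was not run, since no coding length was to hand.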

Other observations

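HTA4, HTR6 and HTR10 were counted at few reads. HTA4, listed with the H2A.Z genes, had 2, 1 and 1 counts in crwn1/2 at 6 DAP, 0, 10, 13, 11 and 6 at 7 DAP and 4, 5, 14 and 17 at 8 DAP, against 1, 1, 3 and 3 in WT at 7 DAP and 1, 0, 1 and 4 at 6 DAP; it was called in 0 of 8 comparisons by edgeR. HTR6 had 7, 1 and 0 counts in crwn1/2 at 6 DAP, 17, 3, 7, 5 and 2 at 7 DAP and 21, 15, 8 and 19 at 8 DAP, against 7, 0, 6 and 4 in WT at 7 DAP and 8, 7, 2 and 5 at 6 DAP. HTR10 had 3, 2, 11 and 1 counts in crwn1/2 at 8 DAP and at most 5 in any other library.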
